A study of Mus musculus with 4 samples.

Results

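Cytl1, Cnmd, Prelp, Timp1, Timp2, Timp3, Ccn1 and Ccn2 encode secreted proteins that build, protect or signal within the extracellular matrix. These 8 of the 32285 genes listed in each matrix were taken by gene symbol, and each symbol matched a single gene. They had been chosen with their levels in these cells known, so their differences between the groups over all cells are given as a description, with no test.

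The study induced the Yamanaka factors Pou5f1, Sox2, Klf4 and Myc for a limited time in the developing mouse brain and profiled single cells of the rostral neocortex at E15.5. i4F-Nes embryos (genotype Nestin-Cre;i4F;ROSA-STOP-rtTA) carried a doxycycline-inducible cassette of the factors, the rtTA transactivator behind a Cre-dependent stop, and Nestin-Cre, a recombinase expressed by neural stem and progenitor cells. CTR embryos, littermates of genotype i4F;ROSA-STOP-rtTA, carried the cassette and the silent transactivator without Cre, and were exposed to the same drug. Doxycycline was in the water of all dams (0.2 mg/ml) between E10.5 and E14.5, a span of 4 days, and each group had 2 libraries. Wild-type or untreated embryos were not part of the design, and the number of embryos per library is not given in the sources used here, so the spread between libraries may be technical.

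Tissue inhibitors of metalloproteinases (TIMPs) bind and block the enzymes that cut matrix proteins, and TIMP3 is itself held in the matrix. CCN proteins sit in the matrix and signal through integrins, and Ccn1 and Ccn2 are textbook targets of the YAP and TEAD transcription factors. CYTL1, chondromodulin (the product of Cnmd) and PRELP are best known from cartilage and other connective tissues, not from the cortex.

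After filtering, 7498 and 6407 cells (128584415 and 78346750 UMIs) remained in the i4F-Nes libraries, and 6046 and 6690 cells (96777222 and 81800848 UMIs) in the CTR libraries. A UMI (unique molecular identifier) tags 1 captured mRNA molecule, and levels are given as CPM, the UMIs of a gene scaled to a common total of all UMIs of the cells summed. Replicate 1 was the deeper library in both groups. As a check of the labels, Pou5f1 stood at 30.1 and 10.8 CPM in i4F-Nes libraries and at 1.88 and 1.28 CPM in CTR libraries. The other 3 factors overlapped between the groups: Sox2 at 86.3 and 76.0 CPM in i4F-Nes libraries and 93.3 and 52.5 CPM in CTR libraries, Klf4 at 3.47 and 3.42 CPM and 5.42 and 2.58 CPM, and Myc at 13.0 and 10.2 CPM and 17.7 and 10.1 CPM. Xist, which is transcribed from the inactive X chromosome of females, was near 0 in CTR replicate 1 (0.0103 CPM) and stood at 848, 1050 and 1160 CPM in the other 3 libraries, so sex is not balanced between the groups. Any pair of libraries shared 11 to 21 cell barcodes, at most 0.325% of a library's cells. The labels call the material cortical neurons, but cells passing the excitatory neuron markers made up 60.3% and 46.8% of i4F-Nes cells and 60.4% and 62.0% of CTR cells, with radial glia, intermediate progenitors, interneurons, vascular cells and microglia among the rest.

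Over all kept cells the 8 genes fell into 2 patterns: 5 were higher in both i4F-Nes libraries than in both CTR libraries, and 3 overlapped between the groups. Of all genes tested, 28.8% were likewise higher in both i4F-Nes libraries, and 2.18% were called higher by edgeR's quasi-likelihood test. The members were chosen from this contrast, so nothing is read from their count. A sum over all cells cannot tell fewer expressing cells from less RNA per cell. In CTR cortex Cytl1, Cnmd and Prelp were close to undetected, whereas Timp2, Timp3 and Ccn1 were readily measured.

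Cytl1, a small secreted cytokine-like protein (ENSMUSG00000062329, GRCm38 chr5:37735519-37739820, plus strand), was measured at 29.9 and 34.4 CPM in i4F-Nes libraries, against 0 and 0.0122 CPM in CTR libraries. These levels rest on 3843 and 2692 UMIs in i4F-Nes libraries and on 0 and 1 UMI in CTR libraries. The ratio of the summed levels was 5640, with a 95% counting interval of 1010 to 223000 that covers counting error only. A count of 0 in CTR replicate 1 allows up to 0.0310 CPM, the level of 3 counts. Cytl1 was therefore nearly unmeasured in normal cortex at this age and abundant in both induced libraries.

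Cnmd, whose product chondromodulin inhibits vessel growth in cartilage (ENSMUSG00000022025, GRCm38 chr14:79637690-79662170, minus strand), was measured at 20.04 and 12.7 CPM in i4F-Nes libraries, against 0.0827 and 0.183 CPM in CTR libraries. Prelp, a small leucine-rich proteoglycan that anchors basement membranes to connective tissue (ENSMUSG00000041577, GRCm38 chr1:133910304-133921414, minus strand), had 2519 and 1136 UMIs in i4F-Nes libraries, up to 19.6 CPM, against 11 and 9 UMIs in CTR libraries, up to 0.114 CPM. Timp1, a soluble and inducible inhibitor of metalloproteinases (ENSMUSG00000001131, GRCm38 chrX:20870166-20874735, plus strand), stood at 22.7 and 20.2 CPM in i4F-Nes libraries, against 0.444 and 0.159 CPM in CTR libraries. All 3 were high in both i4F-Nes libraries and low in both CTR libraries, with no overlap. The fitted log2 differences were 6.86 ± 0.473 for Cnmd, 7.14 ± 0.30 for Prelp and 6.04 ± 0.476 for Timp1 (SE, n = 2 libraries per group).

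Timp3, the matrix-bound inhibitor (ENSMUSG00000020044, GRCm38 chr10:86300372-86349506, plus strand), differed by less, with 31.3 and 27.9 CPM in i4F-Nes libraries and 6.10 and 5.57 CPM in CTR libraries, a log2 difference of 2.25 ± 0.160. Timp2, which both inhibits metalloproteinases and takes part in activating MMP2 (ENSMUSG00000017466, GRCm38 chr11:118301069-118355740, minus strand), stood at 26.0 and 25.8 CPM in i4F-Nes libraries and at 27.2 and 25.5 CPM in CTR libraries (−0.12 ± 0.128). The 3 inhibitors thus differed in how they separated the groups: Timp1 and Timp3 did not overlap and Timp2 did.

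Ccn1 (ENSMUSG00000028195, GRCm38 chr3:145646976-145649981, minus strand) followed the replicate number more than the genotype. It stood at 67.8 and 29.3 CPM in i4F-Nes libraries and at 52.5 and 9.47 CPM in CTR libraries, a log2 difference of 0.55 ± 0.812 that ran from −0.17 to 2.25 when each library was left out in turn. The highest values of both groups were in replicate 1. Ccn2, also called connective tissue growth factor (ENSMUSG00000019997, GRCm38 chr10:24595442-24598683, plus strand), was low in every library, with 2.89 and 2.36 CPM in i4F-Nes libraries and 3.43 and 1.00 CPM in CTR libraries (0.15 ± 0.581, and −0.45 to 1.29 without 1 library).

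**Figure D1:**
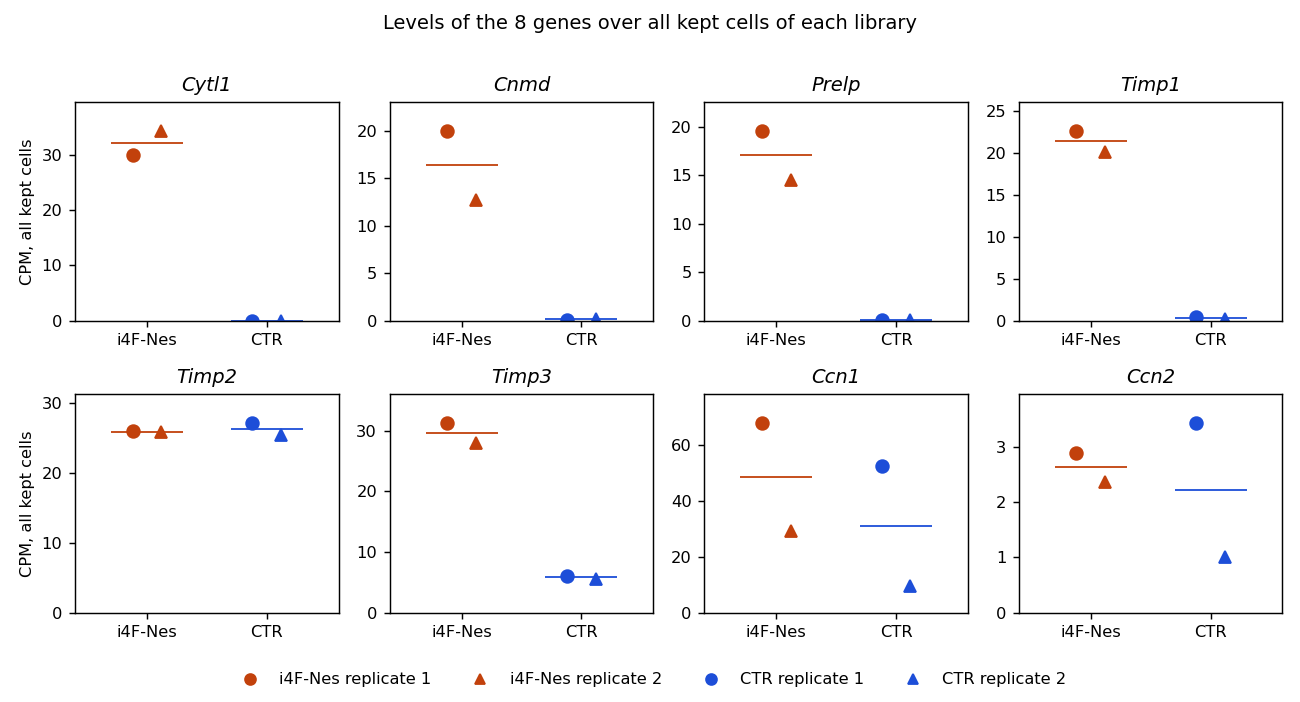
Level of each of the 8 genes over all kept cells in CPM, on linear axes that start at 0 and differ between panels, with 1 symbol per library (circles replicate 1, triangles replicate 2), i4F-Nes left of CTR, and a line at each group's mean. The i4F-Nes symbols of Cytl1, Cnmd, Prelp, Timp1 and Timp3 all lie above the CTR symbols, and those of Timp2, Ccn1 and Ccn2 overlap them.

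Sequence just before the annotated start was read from RefSeq on GRCm38.p6 for 7 of the 8 members, Ccn2 having no entry in the table. The windows of 3 members are shown, 250 bases each: Cytl1 as the gene closest to absent from CTR cells, Timp1 as the inducible inhibitor, and Ccn1 as the known YAP and TEAD target. Capitals mark every match, on either strand, to any of 6 motifs, and the last base is the one before the start.
Cytl1 (chr5:37735269-37735518, plus strand): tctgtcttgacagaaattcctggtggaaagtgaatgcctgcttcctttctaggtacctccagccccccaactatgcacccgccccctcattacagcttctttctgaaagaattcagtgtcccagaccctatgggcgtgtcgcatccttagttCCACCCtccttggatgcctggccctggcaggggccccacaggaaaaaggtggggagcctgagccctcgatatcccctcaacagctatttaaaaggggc
Timp1 (chrX:20869916-20870165, plus strand): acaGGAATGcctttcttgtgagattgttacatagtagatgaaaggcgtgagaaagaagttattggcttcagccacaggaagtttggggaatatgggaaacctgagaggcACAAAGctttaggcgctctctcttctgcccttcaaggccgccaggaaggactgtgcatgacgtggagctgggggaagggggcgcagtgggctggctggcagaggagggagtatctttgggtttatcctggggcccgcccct
Ccn1 (chr3:145649986-145650235, minus strand): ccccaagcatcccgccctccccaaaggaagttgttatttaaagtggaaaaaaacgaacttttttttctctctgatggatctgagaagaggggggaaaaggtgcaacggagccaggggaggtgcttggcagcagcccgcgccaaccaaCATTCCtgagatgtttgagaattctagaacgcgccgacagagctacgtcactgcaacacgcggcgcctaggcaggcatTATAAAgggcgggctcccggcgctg
The TEAD motif GGAATG was found in Timp1, 247 bases before the start, and in Ccn1 on the opposite strand, 103 bases before it, and in 12.6% of all promoter windows. The KLF motif CCACCC, found in 28.1% of windows, occurred once in Cytl1, 98 bases before the start, and in Cnmd, Prelp, Timp2 and Timp3. The SOX motif ACAANG, in 36.3% of windows, occurred in Timp1, Timp2 and Timp3. The octamer ATTTGCAT of the POU factors, in 1.6% of windows, and the E-box CACGTG of the MYC family, in 6.02%, occurred in none of the 7 windows. A TATA motif (TATAAA, in 12.4% of windows) lay 25 bases before the start of Ccn1. These matches describe the letters of the windows and say nothing of binding.

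To ask which cells held these transcripts, each cell was assigned by the number of listed markers with a UMI. Cells with at least 7 of 11 markers of a factor-induced progenitor state (Lgals7, Crip1, S100a11, Tppp3, Cd109, Anxa1, S100a6, Lgals1, Hopx, Nanog and Epcam) numbered 416 and 371 in i4F-Nes libraries and 1 and 0 in CTR libraries. A second state with at least 5 of 8 markers around Krt8 and the Ebf genes numbered 206 and 205 cells in i4F-Nes libraries and 0 in both CTR libraries. Both marker lists were chosen from these data and the numbers of markers required were set after the counts per cell were seen. The factor-induced progenitors also held radial glia markers, at a summed 2470 and 3330 CPM, and their own 11 markers summed to 4510 and 4300 CPM. They were deep, with medians of 35806.5 and 27459 UMIs against 15482 and 15187 UMIs in radial glia of the same i4F-Nes libraries. A limit of at least 7 markers with a UMI favours deep cells, and its part in these medians was not tested. The single CTR cell past this limit held 0 UMIs of Lgals7, Anxa1, Nanog and Epcam and no Cytl1.

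Factor-induced progenitors held the bulk of the UMIs of Cytl1, Timp1, Prelp and Cnmd. Cytl1 stood there at 209 and 211 CPM in the i4F-Nes libraries, with 88.7% and 87.6% of all its UMIs. Timp1 stood at 153 and 128 CPM (85.4% and 90.2% of its UMIs), Prelp at 129 and 86.4 CPM (83.8% and 84.9%), and Cnmd at 125 and 73.5 CPM (79.5% and 82.4%). These cells were 5.55% and 5.79% of the i4F-Nes cells.

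Timp3 and Ccn1 were also high in factor-induced progenitors, with more of their UMIs in other cells. Timp3 stood at 148 and 93.0 CPM (60.2% and 47.5% of its UMIs) and Ccn1 at 277 and 136 CPM (51.9% and 66.1%). Timp2 stood at 31.8 and 25.2 CPM (15.6% and 13.9%) and Ccn2 at 7.47 and 6.18 CPM (32.9% and 37.3%). The 2 CCN genes and Timp2 were thus not set apart by their level in the induced cells.

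Against radial glia of the same library, with 1 CPM added to both, factor-induced progenitors had 58.4-fold and 11.3-fold the Cytl1 level in i4F-Nes replicates 1 and 2, and 84.2-fold and 25.5-fold the Cnmd level. The ratios were 37.1 and 17.4 for Prelp, 44.9 and 23.3 for Timp1, and 5.42 and 3.25 for Timp3. Across the genes compared, 7.06% were at least 2-fold higher in both i4F-Nes libraries and 5.72% at least 2-fold lower. The 3 remaining members were level or lower: Ccn1 at 0.984 and 1.24, Timp2 at 0.689 and 0.427, and Ccn2 at 0.469 and 0.430.

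The Krt8-Ebf state held a different selection of the set. Timp3 stood there at 86.4 and 84.0 CPM and Cnmd at 57.7 and 32.9 CPM. Cytl1 was at 0.813 and 0 CPM, Ccn1 at 1.22 and 0.851 CPM, Timp2 at 4.88 and 4.82 CPM and Ccn2 at 2.44 and 1.13 CPM. Prelp (12.6 and 3.69 CPM) and Timp1 (19.3 and 3.12 CPM) lay between, and differed between the libraries. Cnmd and Timp3 were therefore measured in both induced states, and Cytl1 was near 0 in the Krt8-Ebf state.

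Vascular, microglial and fibroblast markers were low in the factor-induced progenitors, and those of oligodendrocyte precursors were not. Cells that also met the vascular, microglial or fibroblast marker sets were left out of this class, whereas those meeting the precursor set were kept. The contrast was thus partly fixed by the assignment. Endothelial markers summed to 3.61 and 4.03 CPM with 7 of 9 detected and Kdr and Tie1 at 0, and microglial markers to 3.06 and 5.74 CPM with C1qa at 0. Mural markers summed to 19.4 and 13.2 CPM, and meningeal fibroblast markers to 3.80 and 6.72 CPM with Col3a1 and Lum at 0. Markers of oligodendrocyte precursors summed to 61.4 and 96.1 CPM, with Pdgfra near 0. The members' own levels were 73.5 to 211 CPM for Cytl1, Cnmd, Prelp and Timp1, a range that held only the sum of replicate 2. The part of these precursor markers in those levels was not tested.

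**Figure D2:**
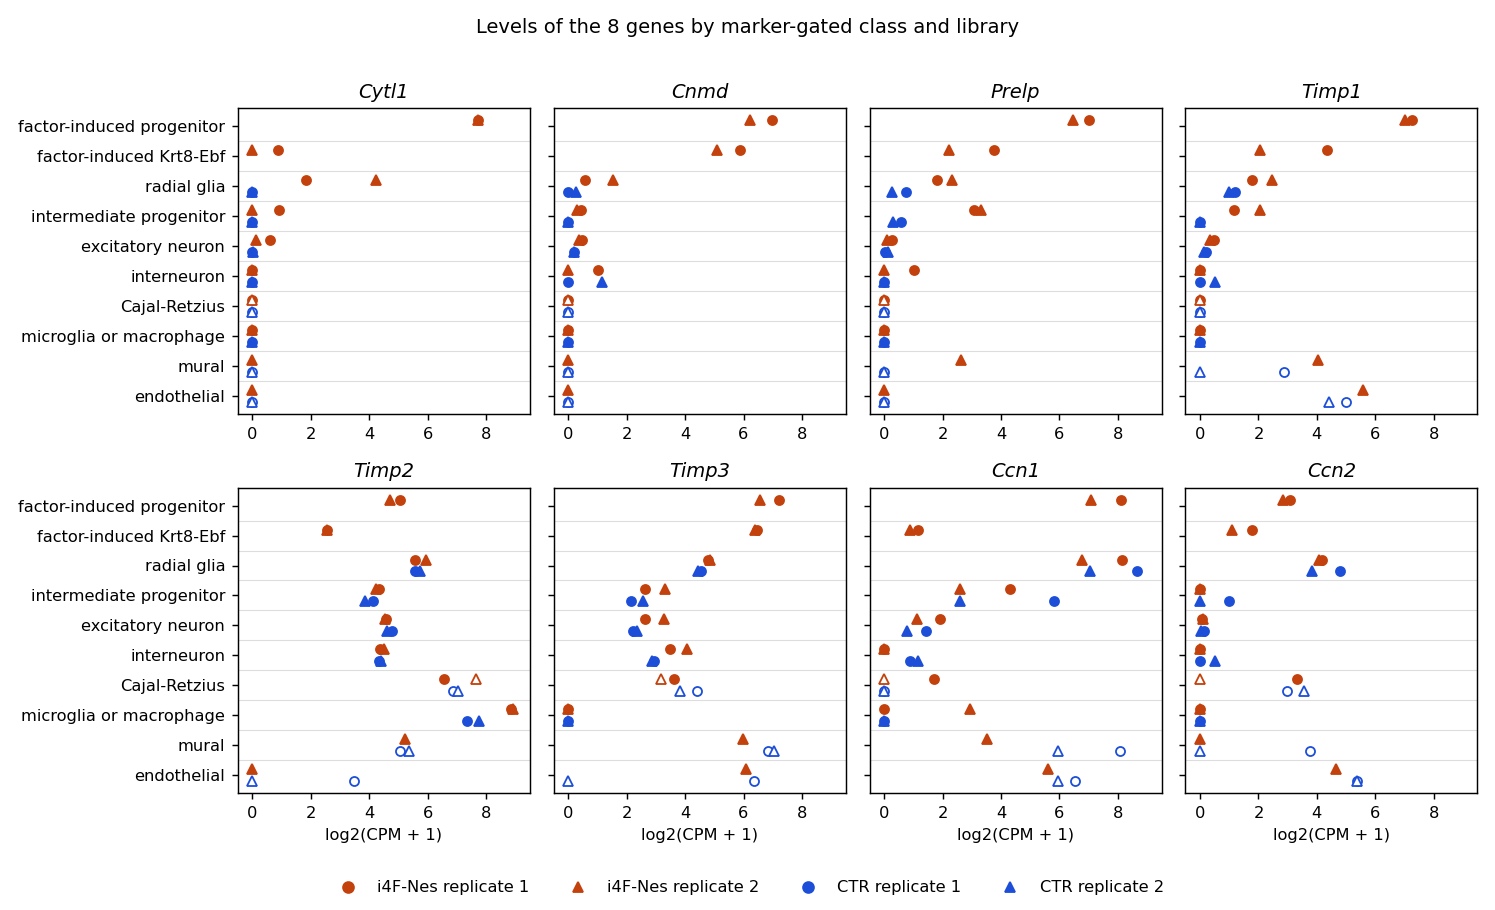
Level of each of the 8 genes by cell class and library as log2(CPM + 1), with i4F-Nes above CTR in each class, circles for replicate 1 and triangles for replicate 2. Filled symbols have at least 20 cells, open symbols fewer, and under 4 cells none is drawn. Cytl1 peaks in the factor-induced progenitors (209 and 211 CPM), whereas Timp2 peaks in microglia of every library.

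Cytl1 was detected in a minority of the factor-induced progenitors. Of these cells, 182 of 416 and 164 of 371 had a Cytl1 UMI in the 2 i4F-Nes libraries, and 77 and 65 had at least 10. As few as 20 and 19 cells held 51.0% and 50.3% of the Cytl1 UMIs of the state, and the highest cells held 181 and 124 UMIs. With each cell thinned to 3800 UMIs, Cytl1 was detected in 25.7% (95% interval 21.6 to 30.2) and 26.1% (21.7 to 30.9) of them. Excitatory neurons of the same libraries had it in 0.200% and 0.0% (0.841% and 0.133% unthinned). Free RNA was not measured, so its part in these shares is not known.

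Cnmd, Prelp and Timp1 were detected in more of the progenitors than Cytl1 before thinning. Unthinned shares were 70.9% and 51.2% for Cnmd, 93.5% and 84.6% for Prelp and 94.5% and 84.9% for Timp1, against 43.8% and 44.2% for Cytl1. At 3800 UMIs per cell they were 32.0% and 21.8% for Cnmd, 37.3% and 25.3% for Prelp and 46.4% and 31.3% for Timp1. Of these 4 genes, 0 were detected in 74 (17.8%) and 121 (32.6%) of the thinned cells, 1 in 158 and 142, 2 in 133 and 81, 3 in 40 and 24, and all 4 in 11 (2.64%) and 3 (0.809%). Cells with all 4 were the rarest class at this depth in both i4F-Nes libraries.

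Within the factor-induced progenitors, cells with a Cytl1 UMI after thinning (107 and 97 cells) were set against those without (309 and 274 cells). Depth was alike, with medians of 35215 against 35862 UMIs in i4F-Nes replicate 1 and 27380 against 27590 UMIs in replicate 2. Sox10, a transcription factor of oligodendrocyte precursors and neural crest, stood at 77.8 CPM in cells with Cytl1 against 25.5 CPM in cells without in replicate 1, and at 116 against 41.4 CPM in replicate 2. Olig1 and Olig2, factors of the oligodendrocyte lineage, were higher with Cytl1 too, Olig1 at 26.9 against 7.40 CPM and 41.5 against 10.1 CPM, and Olig2 at 12.8 against 2.83 CPM and 26.3 against 7.69 CPM. Pdgfra, a receptor of oligodendrocyte precursors, was near 0 in both, with 1 UMI in cells with Cytl1 against 1 in cells without in replicate 1 and 3 against 4 in replicate 2. Nanog, a pluripotency factor, went the other way, at 57.4 against 136 CPM and 24.6 against 53.6 CPM. Fabp7, a radial glia marker, was higher with Cytl1, at 241 against 94.1 CPM and 234 against 172 CPM. Mki67 was lower with Cytl1, at 200 against 256 CPM and 247 against 314 CPM. Epcam, a marker of the induced state, differed in direction, at 72.0 against 99.5 CPM and 173 against 150 CPM. Both libraries agreed in the direction of Sox10, Olig1, Olig2, Nanog, Fabp7 and Mki67. These genes, with Pdgfra and Epcam, were chosen for this description with the data in view and were not tested.

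Among the other members the CCN genes differed most between cells with and without Cytl1. Cnmd stood at 124 CPM with Cytl1 against 126 CPM without in replicate 1 and at 79.9 against 71.2 CPM in replicate 2, and Prelp at 127 against 130 CPM and 82.6 against 87.8 CPM. Timp1 was at 158 against 151 CPM and 158 against 117 CPM, and Timp3 at 163 against 143 CPM and 117 against 84.5 CPM, both higher with Cytl1 in both libraries. Timp2 was lower with Cytl1, at 28.1 against 33.2 CPM and 21.2 against 26.6 CPM. Ccn1 was lower with Cytl1, at 187 against 309 CPM and 60.0 against 164 CPM, and so was Ccn2, at 4.18 against 8.65 CPM and 2.36 against 7.57 CPM. Split instead by Nanog (130 against 286 cells and 42 against 329 cells), the cells with Nanog had less Cytl1 (139 against 244 CPM and 104 against 229 CPM) and more Ccn1 (373 against 229 CPM and 245 against 118 CPM). Cells with Nanog were deeper, with medians of 39404 against 34446 UMIs and 32746 against 26559 UMIs, and the part of depth in this split was not tested.

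**Figure D3:**
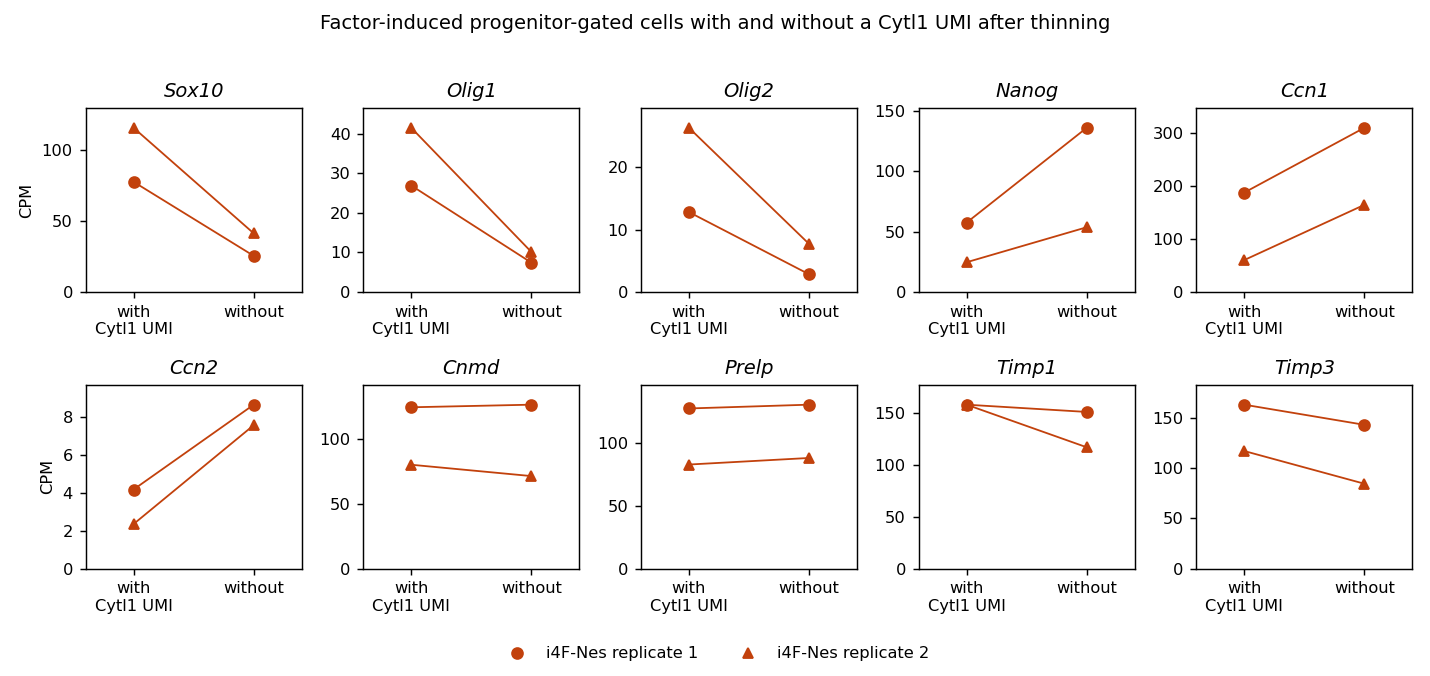
Level in CPM, on linear axes from 0, of 10 genes in factor-induced progenitors with a Cytl1 UMI after thinning (left) and without (right), each line being 1 i4F-Nes library (circles replicate 1, triangles replicate 2). Sox10, Olig1 and Olig2 are higher with Cytl1 in both libraries, and Nanog, Ccn1 and Ccn2 are lower.

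Outside the induced states, the members that did not overlap between the groups were lower in i4F-Nes libraries but still did not overlap. With both factor-induced states left out, Cytl1 stood at 4.00 and 5.26 CPM in i4F-Nes libraries, against 0 and 0.0122 CPM in CTR libraries. Prelp stood at 3.22 and 2.50 CPM in i4F-Nes libraries, against 0.114 and 0.110 CPM in CTR libraries, and Timp1 at 3.10 and 2.28 CPM, against 0.444 and 0.159 CPM. The same 5 members still did not overlap between the groups. Part of this lay in cells that met a marker set but fit no reported class. These met several sets, or only that of oligodendrocyte precursors, meningeal fibroblasts, choroid plexus or erythroid cells. In i4F-Nes libraries they held 337 and 185 Cytl1 UMIs (79.7 and 156 CPM), 237 and 31 Prelp UMIs and 256 and 24 Timp1 UMIs. Cells that met no marker set held 15 and 44 UMIs of Cytl1, 7 and 54 of Prelp and 5 and 39 of Timp1.

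Radial glia, the neural stem cells that line the ventricle (745 and 374 i4F-Nes cells, 547 and 349 CTR cells), held Cytl1 at 2.59 and 17.8 CPM in i4F-Nes libraries, against 0 in both CTR libraries. Prelp stood there at 2.51 and 4.01 CPM in i4F-Nes libraries, against 0.691 and 0.195 CPM in CTR libraries, and Timp1 at 2.42 and 4.54 CPM, against 1.28 and 0.974 CPM. All 3 were higher in both i4F-Nes libraries than in both CTR libraries, as were 19.9% of the genes tested in radial glia. Without the cells that held 4 to 6 of the 11 progenitor-state markers, which left 638 and 298 i4F-Nes and 485 and 318 CTR radial glia, Cytl1 was at 0.413 and 0 CPM in i4F-Nes libraries, against 0 in both CTR libraries. Prelp was then at 1.13 and 0.463 CPM, against 0.697 and 0.218 CPM, and Timp1 at 1.34 and 0.231 CPM, against 1.39 and 0.874 CPM. Most of the low Cytl1 and Prelp level in i4F-Nes radial glia was thus in cells that also held markers of the induced state. Without those cells both Prelp and Timp1 overlapped between the groups.

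In edgeR's quasi-likelihood test on summed radial glia, 0 of the 7 members that passed the filter on low counts were called, as 0.00764% of all genes tested there were. Likewise 0 of 4 members were called in intermediate progenitors (0.0163% of all genes), 0 of 5 in excitatory neurons (0.0% of all genes) and 0 of 1 in microglia (1.24% of all genes). The log2 differences were 9.33 ± 2.92 for Cytl1 (adjusted p = 0.999), a value that depends on the prior count because CTR radial glia held 0 UMIs, 2.59 ± 0.619 for Prelp (adjusted p = 0.592) and 1.5 ± 0.519 for Timp1 (adjusted p = 0.999). Over the alternatives the adjusted p of Cytl1 ran from 0.000547 to 1, with calls, among others, without i4F-Nes replicate 1 (0.00120) and with 1 more marker required (0.0395). The gated cells also entered the sums from which the members were chosen, so these tests are not independent of the choice.

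Intermediate progenitors, the dividing cells between radial glia and neurons, also held more Prelp in i4F-Nes libraries. It stood at 7.51 and 8.999 CPM in i4F-Nes libraries, against 0.483 and 0.219 CPM in CTR libraries, on 43 and 37 UMIs against 3 and 1. The difference of 4.38 ± 0.541 on the log2 scale missed the threshold in edgeR (adjusted p = 0.0646) and passed under some alternatives. It ran from 4.07 to 5.02 when each library was left out in turn. Prelp was chosen from these data and passed the filter on low counts through the i4F-Nes libraries. Its tests here are thus not independent of the choice. Without the cells that held 4 to 6 progenitor-state markers, Prelp was at 3.06 and 1.20 CPM in i4F-Nes libraries, against 0.332 and 0.222 CPM in CTR libraries, on 16 and 4 UMIs against 2 and 1. Unlike in radial glia, the groups then still did not overlap, though on few UMIs. The sum of the 11 progenitor-state markers in the full class was 184 and 342 CPM in i4F-Nes libraries and 105 and 84.6 CPM in CTR libraries. The difference between the response in intermediate progenitors and in excitatory neurons was 2.94 ± 1.33 (edgeR, adjusted p = 1).

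**Figure D4:**
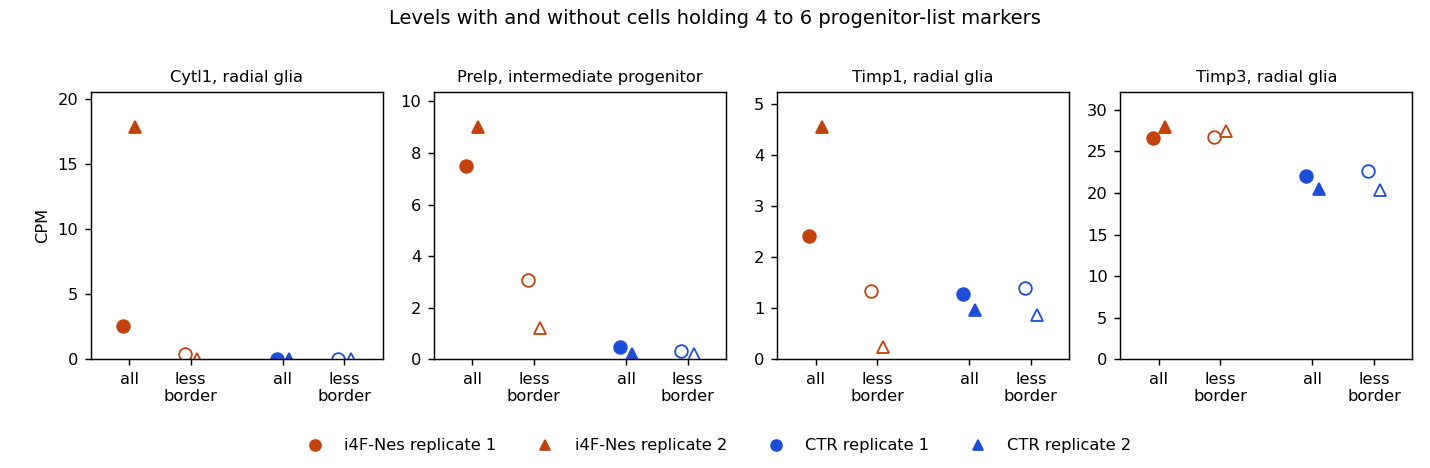
Level in CPM, on linear axes from 0, of Cytl1, Timp1 and Timp3 in radial glia and of Prelp in intermediate progenitors, with i4F-Nes left of CTR, circles for replicate 1 and triangles for replicate 2. Filled symbols include all cells of the class and open symbols leave out those with 4 to 6 progenitor-state markers, where Cytl1 in i4F-Nes radial glia is at 0.413 and 0 CPM.

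Other members had clear sources in normal cortex, which the i4F-Nes libraries shared. Timp2 was highest in microglia, the resident macrophages of the brain (28 and 34 i4F-Nes cells, 26 and 44 CTR cells), at 458 and 486 CPM in i4F-Nes libraries, against 161 and 216 CPM in CTR libraries. These values rest on 120 and 72 UMIs against 29 and 60, with 95% intervals of 380 to 548 and 380 to 612 CPM against 108 to 231 and 165 to 278 CPM. The 2 groups did not overlap, and the log2 difference of 1.22 ± 0.397 missed the threshold in edgeR (adjusted p = 0.145, and 0.0839 to 0.570 over the alternatives). In microglia 25.0% of the tested genes were likewise higher in both i4F-Nes libraries. The median microglial cell held 6432 and 2166.5 UMIs in i4F-Nes libraries and 2919.5 and 2495 UMIs in CTR libraries.

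Elsewhere the Timp2 levels of the groups lay closer together. Cajal-Retzius cells, early neurons of the cortical surface (21 and 10 i4F-Nes cells, 15 and 18 CTR cells), held 93.9 and 203 CPM in i4F-Nes libraries and 115 and 130 CPM in CTR libraries, and radial glia 46.6 and 60.4 CPM in i4F-Nes libraries and 46.2 and 52.8 CPM in CTR libraries. Excitatory neurons stood at 23.0 and 22.5 CPM in i4F-Nes libraries and at 26.6 and 23.1 CPM in CTR libraries. As the most numerous cells, they held 50.03% and 44.98% of the Timp2 UMIs of i4F-Nes libraries and 61.5% and 64.8% of those of CTR libraries. In CTR libraries Timp2 was thus above 100 CPM in microglia and Cajal-Retzius cells, and lower but measured in neurons.

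Timp3 in normal cortex was measured in mural cells, the pericytes and smooth muscle around vessels, in endothelial cells and in radial glia. Mural cells held 62.3 CPM in i4F-Nes replicate 2, the only i4F-Nes library with such cells, and 114 and 132 CPM in CTR libraries, on 12 UMIs against 18 and 13. Endothelial cells held 67.3 CPM in i4F-Nes replicate 2 (39 UMIs), and 81.9 CPM (8 UMIs in 9 cells) and 0 CPM (4 cells) in CTR libraries. Radial glia stood at 26.6 and 27.9 CPM in i4F-Nes libraries and at 22.1 and 20.5 CPM in CTR libraries, and no UMI was found in microglia of any library. The radial glia difference of 0.33 ± 0.183 did not pass (edgeR, adjusted p = 0.999), and the values without border cells were 26.7 and 27.5 CPM in i4F-Nes libraries and 22.6 and 20.3 CPM in CTR libraries. In excitatory neurons Timp3 stood at 5.23 and 8.70 CPM in i4F-Nes libraries, against 3.59 and 4.10 CPM in CTR libraries, a difference of 0.81 ± 0.312 (edgeR, adjusted p = 1). Timp3 was thus measured in normal radial glia at a level below that of both induced states.

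Timp1 was highest in endothelial cells among the normal classes reported, which leave out meningeal fibroblasts, oligodendrocyte precursors and choroid plexus. Endothelial cells, which line the vessels, held 46.6 CPM in i4F-Nes replicate 2 (27 UMIs, 95% interval 30.7 to 67.8). In CTR libraries they held 30.7 and 20.2 CPM, on 3 and 1 UMIs in 9 and 4 cells. i4F-Nes replicate 1 had 1 endothelial cell, so no value is given for it. All CTR cells together held 43 and 13 Timp1 UMIs, of which radial glia held 13 and 5. Cells that met a marker set but fit no reported class held another 13 in CTR replicate 1 and none in CTR replicate 2.

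Ccn1 was mainly a gene of radial glia in CTR cortex, as was Ccn2. It stood at 282 and 109 CPM in i4F-Nes radial glia and at 406 and 132 CPM in CTR radial glia, which held 38.7% and 27.2% of all its UMIs in i4F-Nes libraries and 80.9% and 87.1% in CTR libraries. Replicate 1 was the higher library in both groups, and the groups overlapped. The log2 difference was −0.48 ± 0.783 (edgeR, adjusted p = 0.999), and it ran from −1.28 to 0.49 when each library was left out, with a call without CTR replicate 2 (−1.06, adjusted p = 0.0244). Intermediate progenitors showed the same split by replicate, at 18.9 and 5.11 CPM in i4F-Nes libraries and 54.9 and 5.04 CPM in CTR libraries. Vascular cells held it too, on few cells. Endothelial cells were at 48.3 CPM in i4F-Nes replicate 2, on 28 UMIs of which 1 cell held 15. In CTR libraries they were at 92.1 and 60.6 CPM, on 9 and 3 UMIs. Mural cells were at 10.4 CPM in i4F-Nes replicate 2 (2 UMIs) and at 267 and 60.7 CPM in CTR libraries (42 and 6 UMIs). Excitatory neurons held at most 2.73 CPM in any library.

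Ccn2, like Ccn1, was measured in radial glia and, on few UMIs, in endothelial cells. Radial glia stood at 17.1 and 15.7 CPM in i4F-Nes libraries and at 26.9 and 13.4 CPM in CTR libraries, with a difference of −0.34 ± 0.293 (edgeR, adjusted p = 0.999; −0.72 to 0.22 without 1 library). They held 55.0% and 48.6% of its UMIs in i4F-Nes libraries and 82.2% and 84.1% in CTR libraries. Endothelial cells were at 24.1 CPM in i4F-Nes replicate 2, on 14 UMIs of which 1 cell held 11. In CTR libraries they were at 40.9 and 40.4 CPM, on 4 and 2 UMIs in 9 and 4 cells. Most UMIs of both CCN genes in CTR cortex were thus in radial glia.

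Immediate early genes respond within minutes to stimulation and to tissue dissociation, and Ccn1 is often counted among them. Their sum differed between classes, and over all kept cells both i4F-Nes libraries lay above both CTR libraries. Replicate 1 was higher in each class given here, by less in i4F-Nes than in CTR libraries where both had the class. This list was added after the data were seen. It summed to 2240 and 2170 CPM in factor-induced progenitors and to 623 and 509 CPM in the Krt8-Ebf state of the i4F-Nes libraries. In radial glia it summed to 949 and 842 CPM in i4F-Nes libraries and to 1010 and 766 CPM in CTR libraries, and over all kept cells to 588 and 527 CPM in i4F-Nes libraries and 411 and 213 CPM in CTR libraries. In microglia it summed to 786 and 722 CPM in i4F-Nes libraries and 3220 and 853 CPM in CTR libraries. Its part in the Ccn1 and Ccn2 levels was not tested.

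Likeness to each member was measured as Pearson's r of log2(CPM + 1) over 31 sums of a class in a library, among 12018 genes, where sums of 1 library share its depth and most genes are low outside a few classes. The genes most like Cytl1 were Sox10 (0.977), F2rl1 (0.97), Gjc3 (0.96), Olig1 (0.943) and 1700097N02Rik (0.941). Those most like Cnmd were Cfap206 (0.979), Irx5 (0.977), Irx2 (0.971), Pax2 (0.968) and Aqp1 (0.964), and those most like Prelp were Lbhd2 (0.934), Rsph1 (0.928), Gm14507 (0.915), Gsx1 (0.906) and Ripply1 (0.895). Cytl1 and Cnmd thus had no neighbour in common among their 5, although both were highest in the same state.

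For the inhibitors, the genes most like Timp1 were Cavin1 (0.96), Hspb1 (0.949), Spry4 (0.895), Cd109 (0.893), which is itself a marker of the induced state, and Hspb8 (0.884). Timp2 was most like Snx24 (0.886), Syngr1 (0.854), Aldh2 (0.851), Ethe1 (0.844) and Pag1 (0.828), and Timp3 most like Acyp2 (0.890), Cep126 (0.865), Il17rd (0.865), Sned1 (0.849) and Plekhg1 (0.847). The nearest genes of Ccn1 were Etv4 (0.933), Gm17501 (0.907), Rgcc (0.906), Hes1 (0.899) and Mlc1 (0.889), Hes1 being a marker used for radial glia. Those given for Ccn2 are Gm17501 (0.863), Tubgcp3 (0.844), Gclm (0.828) and Ccn1 (0.802). Ccn1 and Ccn2 were the only pair of members in which 1 stood among the nearest genes of the other, and they shared Gm17501.

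The other genes of these pathways were set beside the members with edgeR's quasi-likelihood test over all kept cells, in which 2.18% of all genes were called and 2328 of 18556 had an unadjusted p under 0.05. Of 25 metalloproteinases and regulators, 20 were tested, 0 were called in either direction, 2 had an unadjusted p under 0.05, and the median log2 difference was 0.01, against −0.02 over all genes tested. Mmp16, a membrane-bound metalloproteinase and the most abundant of the list, stood at 214 and 197 CPM in i4F-Nes libraries and at 196 and 209 CPM in CTR libraries (−0.07 ± 0.115, edgeR, adjusted p = 0.897), its sign turning without TMM scaling (0.02). Of 15 other CCN genes and small leucine-rich proteoglycans, 9 were tested and 0 called, 1 with an unadjusted p under 0.05, at a median of 0.18. Bgn, the proteoglycan biglycan and the most abundant of them, stood at 2.27 and 4.06 CPM in i4F-Nes libraries and at 4.49 and 1.59 CPM in CTR libraries (−0.03 ± 0.570, edgeR, adjusted p = 0.991; −0.58 to 0.90 without 1 library). Its normal source was mural cells, at 768 CPM in i4F-Nes replicate 2 and 1180 and 921 CPM in CTR libraries. Of 24 YAP and TEAD targets, 23 were tested and 0 called, 4 with an unadjusted p under 0.05, at a median of 0.23. Asap1, the most abundant, stood at 113 and 123 CPM in i4F-Nes libraries and at 88.7 and 112 CPM in CTR libraries (0.14 ± 0.155, edgeR, adjusted p = 0.835; −0.02 to 0.34 without 1 library).

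Cartilage genes held the only calls among the 4 lists. Of 18 listed, 14 were tested, 2 rose and 0 fell, 8 had an unadjusted p under 0.05, and the median was 1.25, beside 2.18% called, 2328 of 18556 with an unadjusted p under 0.05 and a median of −0.02 over all genes. Col9a2, a chain of the cartilage collagen IX, stood at 4.36 and 4.29 CPM in i4F-Nes libraries, against 0.961 and 0.709 CPM in CTR libraries (2.28 ± 0.281, edgeR, adjusted p = 0.0294). Cilp, a cartilage matrix protein, stood at 1.10 and 2.41 CPM in i4F-Nes libraries, against 0.0827 and 0.0367 CPM in CTR libraries (4.73 ± 0.655, edgeR, adjusted p = 0.0379). Both had their higher level in the Krt8-Ebf state, Col9a2 at 54.3 and 34.9 CPM and Cilp at 22.6 and 44.8 CPM, against 5.51 and 10.6 CPM and 0.490 and 0.359 CPM in the factor-induced progenitors. Of the Cilp UMIs, the Krt8-Ebf state held 111 of 141 and 158 of 189. Of the Col9a2 UMIs it held 267 of 560 and 123 of 336, with 90 and 118 in the factor-induced progenitors. Without both induced states the differences were 0.96 for Col9a2 and 2.26 for Cilp, and neither was called (edgeR, adjusted p = 1 for each).

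Cartilage collagens in the state that held Cytl1 and Prelp were others. Col2a1, the main cartilage collagen, stood at 121 and 86.2 CPM in factor-induced progenitors, against 54.4 and 48.5 CPM in i4F-Nes radial glia and 39.7 and 34.1 CPM in CTR radial glia, and Col9a3 at 110 and 187 CPM in the progenitors. Over all kept cells Col2a1 missed the threshold (2.17 ± 0.370, edgeR, adjusted p = 0.0636), with 1.71e-08 to 1 over the alternatives, 8 of 12 passing. Acan, the core protein of aggrecan, had 0 and 1 UMI in the progenitors. The transcription factors Sox9, Sox5 and Sox6, which act together in cartilage and also in neural cells, were lower there than in radial glia. Sox9 stood at 121 and 101 CPM in the progenitors, against 340 and 304 CPM in i4F-Nes radial glia, Sox5 at 80.3 and 78.8 CPM against 232 and 197 CPM, and Sox6 at 289 and 283 CPM against 832 and 616 CPM. Sox5, the most abundant gene of the list, stood over all kept cells at 1390 and 1100 CPM in i4F-Nes libraries and at 1500 and 1340 CPM in CTR libraries (−0.29 ± 0.159, edgeR, adjusted p = 0.602). Col2a1, Col9a3, Sox5, Sox6, Sox9 and Acan are described here beside Cytl1 and Prelp and were chosen for it after their values were seen, apart from Sox5.

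**Figure D5:**
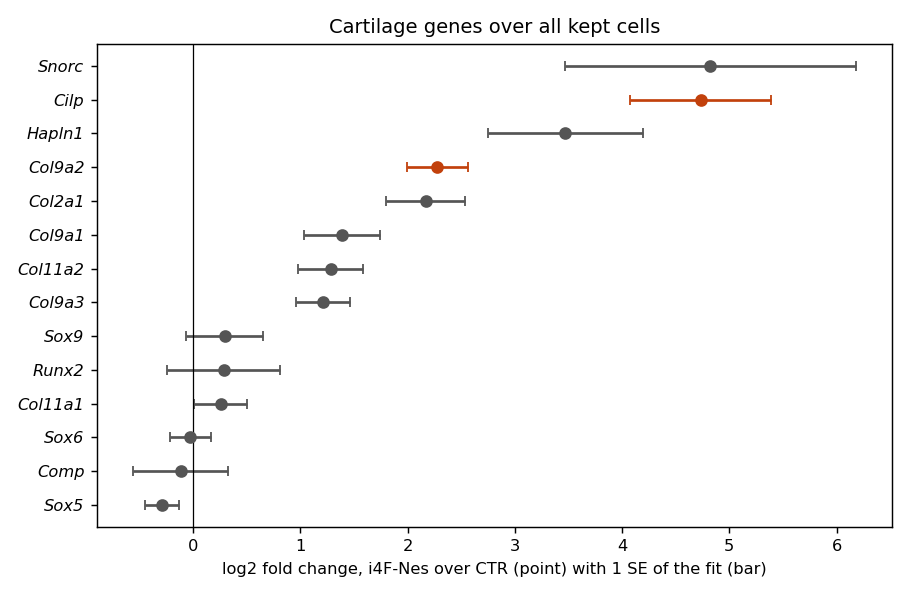
Log2 fold change of i4F-Nes over CTR for the 14 cartilage genes tested over all kept cells, as a point with a bar of 1 SE, in orange where edgeR's test was passed. Only Col9a2 (2.28) and Cilp (4.73) are called, and Sox5 lies at −0.29.

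Neighbouring genes limit what some counts can show, since the use of strand in counting is not given in the sources used here. Timp1 lies inside Syn1 and Timp3 inside Syn3, each on the opposite strand, with 0 of 9 and 1 of 11 exons overlapping exons of the host. Ccn2 overlaps the opposite-strand Gm15270 in 5 of 9 exons, and Prelp the antisense Gm15851 in 2 of 6.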

How the data were processed

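The deposited matrices, 1 for each library, list UMI counts of genes in barcodes, which the authors obtained from cellranger 7.0.1, per the file headers. Per the submitters' processing notes, reads were placed on mm10. How introns and free RNA were handled is not given in the sources used here. Barcodes were kept with at least 1000 UMIs, 500 genes and at most 10% mitochondrial UMIs. Of 35255 barcodes, 28672 passed, and 2031 were removed as doublets by Scrublet score (scanpy 1.11.5, 0.8% per 1000 barcodes). The other 26641 cells held 385509235 UMIs.

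The members and lists were chosen with earlier results of these data known. Cells were classed by the number of markers with a UMI. Counts were summed per library and tested with edgeR 4.0.16 (TMM, filterByExpr, quasi-likelihood, Benjamini-Hochberg at 0.05), with DESeq2 1.42.0 as the other tool, and the scripts were tested on simulated data. Within a class the test needed at least 20 cells in each library. Intervals are exact 95% Poisson or Clopper-Pearson intervals and cover counting error only. Genes named are the 8 members, each list's called and most abundant genes, and each member's 5 nearest genes, with exceptions stated; 1 of the nearest genes is not reported here. Alternatives changed the filter, scaling, doublet removal, UMI minimum, markers required, tool and libraries.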

Additional observations from a re-analysis of the deposited data

Results flagged for a closer look

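The order of the Timp2 levels of i4F-Nes and CTR libraries differed between cell classes, with no class passing edgeR's test (adjusted p = 1 in excitatory neurons and in intermediate progenitors, and 0.145 in microglia). In excitatory neurons both i4F-Nes libraries (23.0 and 22.5 CPM) lay below both CTR libraries (26.6 and 23.1 CPM), whereas in intermediate progenitors (19.0 and 17.8 CPM in i4F-Nes, 16.3 and 13.6 CPM in CTR) and in microglia (458 and 486 CPM in i4F-Nes, 161 and 216 CPM in CTR) both lay above. The log2 difference in intermediate progenitors exceeded that in excitatory neurons by 0.46, which was not tested. The one in microglia exceeded that in excitatory neurons by 1.399. Tested as an interaction in edgeR, that excess was 1.44 ± 0.445 (adjusted p = 0.169), and the excess over radial glia was 1.16 ± 0.414 (adjusted p = 0.230), so neither passed over all genes.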

How the results depend on the processing

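The count of 5 members that did not overlap between the groups over all kept cells held under every alternative run for it, whereas counts over all genes moved. Over all kept cells edgeR called 405 genes, against 1175 with DESeq2, 616 without doublet removal, 802 without the filter on low counts and 0 without the factor-induced cells. In radial glia it called 1 gene, against 18 with DESeq2, 13 with 1 more marker required, 125 without the filter, 0 without TMM scaling and 0 without border cells (4 to 6 progenitor-state markers, an alternative chosen after seeing the data). In intermediate progenitors 2 were called, against 21 with DESeq2, 6 with 1 more marker, 6 without doublet removal and 98 without the filter. In excitatory neurons 0 were called (371 at an unadjusted p under 0.05), against 28 with DESeq2 and 1 without the filter, and in microglia 47, against 86 at a minimum of 3000 UMIs, 105 without the filter and 28 without TMM scaling. With 1 library left out, where the lone library is assumed to vary like the other group, the counts ran from 537 to 779, 3 to 154, 0 to 104, 12 to 41 and 36 to 132, in the same order of classes.

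With a block for the replicate number, which no label ties to a litter or day, 1284 genes were called over all kept cells, 173 in radial glia, 27 in intermediate progenitors, 647 in excitatory neurons and 90 in microglia. The deviations of same-numbered libraries from their group means correlated at 0.44 over 18546 genes. Under the block Timp3 in excitatory neurons (adjusted p = 0.0457), Cytl1 in radial glia (0.000547) and Prelp in intermediate progenitors (0.00834) passed in edgeR. These members were chosen from these data for being higher in i4F-Nes libraries, so the passes are not independent of the choice. Cytl1 and Prelp had few or no UMIs in these CTR classes and passed the filter on low counts through the i4F-Nes libraries.

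Signs turned as follows. Mmp16 reached 0.022 without TMM scaling and 0.17 without the factor-induced cells, and Sox5 0.00 without those cells. Bgn reached 0.051 without TMM scaling, 0.068 with the block, 0.62 without doublet removal, 0.01 at a minimum of 3000 UMIs and 0.51 without border cells. With 1 library left out, the log2 difference ran from −0.14 to 0.30 for Timp2, −1.28 to 0.49 for Ccn1 and −0.72 to 0.22 for Ccn2 in radial glia, from −2.53 to 1.21 for Ccn1 in intermediate progenitors, from −0.076 to 1.42 for Ccn1 in excitatory neurons, and over all kept cells from −0.12 to 0.003 for Mmp16, −0.58 to 0.90 for Bgn and −0.024 to 0.34 for Asap1. The cause of these changes was not tested, beyond the fewer cells, genes or libraries each setting uses. Of the other single-gene values, libraries left out aside, 240 were unchanged in direction and call or within 1 SE or SD, 26 moved further, 8 were newly called and 2 lost their call.

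Depth limits the rare classes: microglia numbered 26 to 44 cells per library, and endothelial and mural cells at most 27.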
